A study of Mus musculus with 8 samples.

Results

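The comparison described here set mouse embryonic stem (ES) cells that carried the second of a pair of hairpins against Fbxl19 (shRNA2, 2 arrays) against the same cells with a control hairpin (shControl, 2 arrays). These are 4 of the 8 arrays of the series, chosen by their titles, and all 12393 genes with a named probe set of their own were described. The cells were of the J1 line, grown on gelatin with serum and leukemia inhibitory factor (LIF), and total RNA was hybridised to Affymetrix Mouse 430A 2.0 arrays. The other groups, of 2 arrays each, were shRNA1 (the first hairpin against Fbxl19) and J1 cells on day 4 of differentiation. Neither the hairpin sequences, the vector, the time after its delivery nor whether clones or pools were used is given in the sources used here. A free-text label of the 2 shRNA2 arrays names Fbxl21 and Fbxl22, while their titles and source names give Fbxl19, and the latter were followed. The annotation gives Fbxl19 no probe set, and the level of the target itself was therefore not measured. Nothing in the labels ties replicates to separate cultures; the p-values below thus reflect the scatter among these arrays alone, which may be technical.

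FBXL19 combines an F-box, the motif that ties a protein to SCF ubiquitin ligases, with a zinc finger of the CXXC type, which recognises unmethylated CpG dinucleotides. Such DNA is concentrated in the CpG islands that cover the promoters of most housekeeping and many developmental genes. The title of the series links FBXL19 to RNF20, the ubiquitin ligase that places a single ubiquitin on histone H2B. A short hairpin RNA is processed into a small interfering RNA that directs the cleavage of a matching mRNA, and it can also lower other mRNAs that share part of its sequence. Several of the genes below belong to 2 well known circuits of the cell cycle. The transcription factor p53 induces genes for growth arrest, repair and cell death after stress. The retinoblastoma protein RB1 holds back entry into S phase until kinases bound to D-type cyclins phosphorylate it.

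All 4 arrays had an ES cell profile. The 12 ES markers had median levels of 11.46 and 11.53 (log2 RMA value, the scale of all levels below) on the shControl arrays and 11.48 and 11.59 on the shRNA2 arrays. Pou5f1, the core pluripotency factor OCT4, read 12.31 and 12.57 with shControl and 12.42 and 12.49 with shRNA2. The 8 fibroblast markers had medians of 3.55 to 3.88, at or under the lower quartile of an array, which was at most 3.90, and Thy1, Pdgfrb and Col1a2 read above it on all 4 arrays. Dcn did so on shControl replicate 1 (4.06) and Col1a1, by a small margin, on shRNA2 replicate 1. Replicate 2 of shControl stood apart. Its quartiles were 3.79, 5.81 and 8.18, and replicate 1 of shControl was nearer to replicate 1 of shRNA2 (Pearson's r = 0.996 across probe sets) than to its own partner (r = 0.993). The SD across genes of the difference between partners was 0.31 for shControl and 0.22 for shRNA2 on the log2 scale. As a sign of RNA quality, the 3' actin control probe set read above the 5' one by 0.60 and 0.54 with shControl and by 0.73 and 0.76 with shRNA2. For Gapdh the same difference was 0.18 and 0.26 with shControl and 0.27 and 0.20 with shRNA2, which overlap. The actin value moved with the group and that of Gapdh did not, and their part in the results was not tested.

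The differences between the groups were small and few. The median over all genes was -0.01 (log2, shRNA2 minus shControl), and 98.5% of genes lay within 1.5-fold. With limma's moderated test over all 4 groups and Benjamini-Hochberg adjustment, no gene passed an adjusted p under 0.05 (0% of 12393). An unadjusted p under 0.05 was reached by 632 genes (5.10%; 619.7 are expected by chance), 350 of them higher (2.82%) and 282 lower (2.28%) with shRNA2. A change of at least 2-fold with no overlap between the arrays of the groups was found for 18 genes higher (0.145%) and 6 lower (0.0484%). With 2 arrays a side, non-overlap alone is common: 15.4% of genes were higher and 17.8% lower on both shRNA2 arrays than on both shControl arrays. An exact permutation test of 2 against 2 arrays cannot go below p = 0.333.

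The number of calls depended on which arrays supplied the estimate of spread. Fitted with the 4 compared arrays alone, 30 genes rose (0.242%) and 10 fell (0.0807%) at an adjusted p under 0.05. Fitted with the 6 arrays of undifferentiated cells, 10 rose (0.0807%) and 2 fell (0.0161%), and all 12 were among the former 40. Those called in both smaller fits were Btg2, Dcxr, Ccng1, Ephx1, Neurod1, Rb1, Sdc4, Perp, Mt2 and Pqlc3, higher with shRNA2, and Ccnd2 and Oxsr1, lower. Since the 4-group test called none, these genes are described below by their levels, with the p of that test and the adjusted p of the compared arrays alone named as such. Of the 24 genes past 2-fold without overlap, 22 passed in the fit of the compared arrays alone, the exceptions being Spink1 and Ms4a10.

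**Figure D1:**
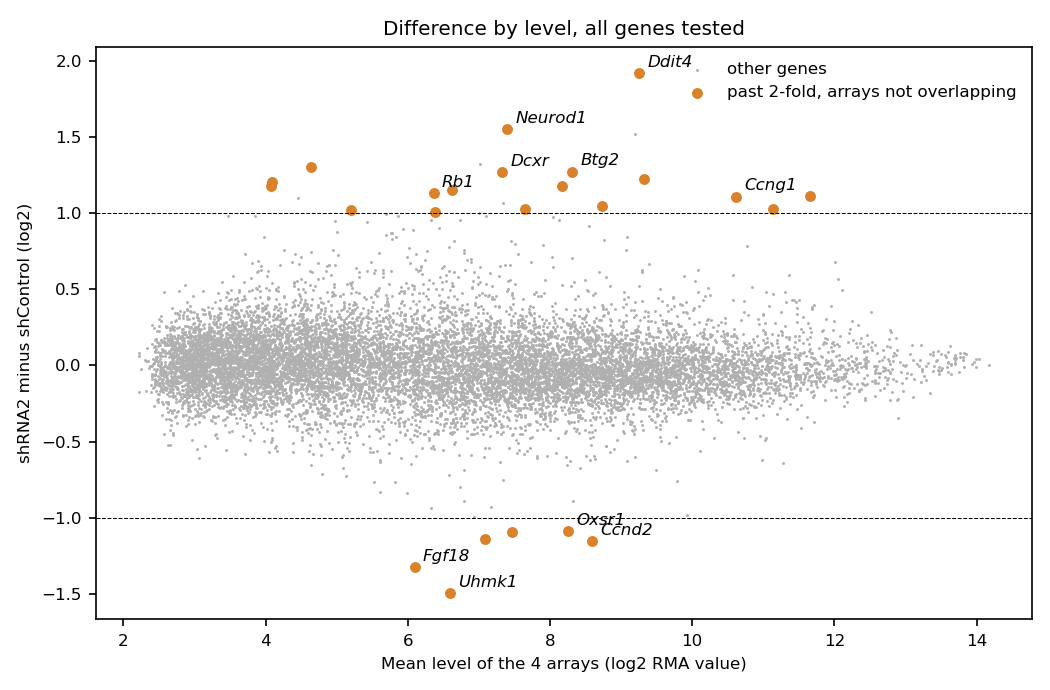
Difference between shRNA2 and shControl (vertical axis, log2) against the mean level of the 4 arrays (horizontal axis, log2 RMA value), 1 point per gene for 12393 genes. Dashed lines mark a 2-fold difference, orange points the 24 genes past it whose arrays did not overlap, 18 above and 6 below.

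Of the genes higher with shRNA2, the 3 with the smallest p were Btg2, Dcxr and Ccng1. Btg2, an antiproliferative p53 target that restrains the G1-to-S transition, read 7.57 and 7.78 with shControl and 9.04 and 8.85 with shRNA2. Both shRNA2 arrays were over 1 log2 unit above both controls, a difference of 1.27 ± 0.14 (SE, n = 2 arrays a group; limma adjusted p = 0.0878). Dcxr, which reduces dicarbonyls and L-xylulose, read 6.53 and 6.85 with shControl and 7.98 and 7.94 with shRNA2, a difference of 1.27 ± 0.16 (limma adjusted p = 0.0878). Ccng1, which encodes cyclin G1 and is a classical p53 target, went from 10.17 and 9.95 to 11.19 and 11.14. Its difference was 1.11 ± 0.14 (limma adjusted p = 0.0878), and its other 2 probe sets differed by 0.65 and 0.86. In none of the 3 genes did the arrays of the groups overlap.

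The next genes on the higher side were Ephx1, Neurod1 and Cgref1. Ephx1, the microsomal epoxide hydrolase that detoxifies reactive epoxides, read 6.57 and 6.43 with shControl and 7.44 and 7.56 with shRNA2 (difference 1.00 ± 0.13; limma adjusted p = 0.111). Neurod1, a proneural transcription factor, read 6.61 and 6.64 with shControl and 8.47 and 7.88 with shRNA2. Its difference of 1.55 ± 0.23 (limma adjusted p = 0.155) was joined by one of 1.84 at its second probe set. Other neural genes did not follow it as a group. Of the 27 measured, Neurod1 included, 2 were higher (Neurod1 and Dll1) and 1 was lower at an unadjusted p under 0.05. Over all genes the shares were 2.82% and 2.28%, and the list's median was 0.05. Cgref1, a secreted calcium-binding protein named for its regulation of growth, read 5.26 and 5.43 with shControl and 6.28 and 6.15 with shRNA2. Cd109, a membrane co-receptor that dampens TGF-beta signalling, Emp3, a tetraspan membrane protein, and Pm20d1, a secreted enzyme that joins fatty acids to amino acids, had differences of 0.98, 0.88 and 0.87. The control level of Cd109, 3.29 and 3.42, lay under the lower quartile of the arrays.

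On the lower side, the smallest p belonged to Oxsr1, Ccnd2, Enoph1 and Trappc10. Oxsr1, a kinase that activates cation-chloride cotransporters under osmotic stress, read 8.67 and 8.93 with shControl and 7.62 and 7.80 with shRNA2 (difference -1.09 ± 0.14; limma adjusted p = 0.111). Ccnd2, which encodes cyclin D2, read 9.15 and 9.19 with shControl and 8.07 and 7.96 with shRNA2 (difference -1.15 ± 0.16; limma adjusted p = 0.140). It was lower at each of its 7 probe sets, by between 0.63 and 1.23 on the log2 scale. Enoph1, an enzyme of the methionine salvage pathway, read 10.60 and 10.23 with shControl and 9.36 and 9.51 with shRNA2. Trappc10, a subunit of a tethering complex in vesicle traffic, read 7.36 and 7.51 with shControl and 6.35 and 6.53 with shRNA2 (difference -0.997 ± 0.17; limma adjusted p = 0.180). All 4 genes were lower on both shRNA2 arrays than on either control.

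The lower genes with the largest differences were Uhmk1 and Fgf18. Uhmk1, a kinase that acts on splicing factors and on the CDK inhibitor p27, read 6.96 and 7.72 with shControl and 5.62 and 6.07 with shRNA2, a difference of -1.50 ± 0.26. Its dimmer probe sets differed by -0.75, -0.88 and 0.13, so the mean of all 4 was -0.75. Fgf18, a secreted fibroblast growth factor, read 6.70 and 6.82 with shControl and 5.71 and 5.16 with shRNA2 (-1.33 ± 0.26). Spink1, a secreted trypsin inhibitor, was 7.73 and 7.59 with shControl and 7.02 and 6.02 with shRNA2. Its shRNA2 arrays lay almost as far from each other as the groups did, whose difference was -1.14 ± 0.34. Msc, which encodes the repressor musculin, differed by -1.09. Notum, a secreted esterase that inactivates Wnt ligands, differed by -0.89 and passed in neither smaller fit.

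**Figure D2:**
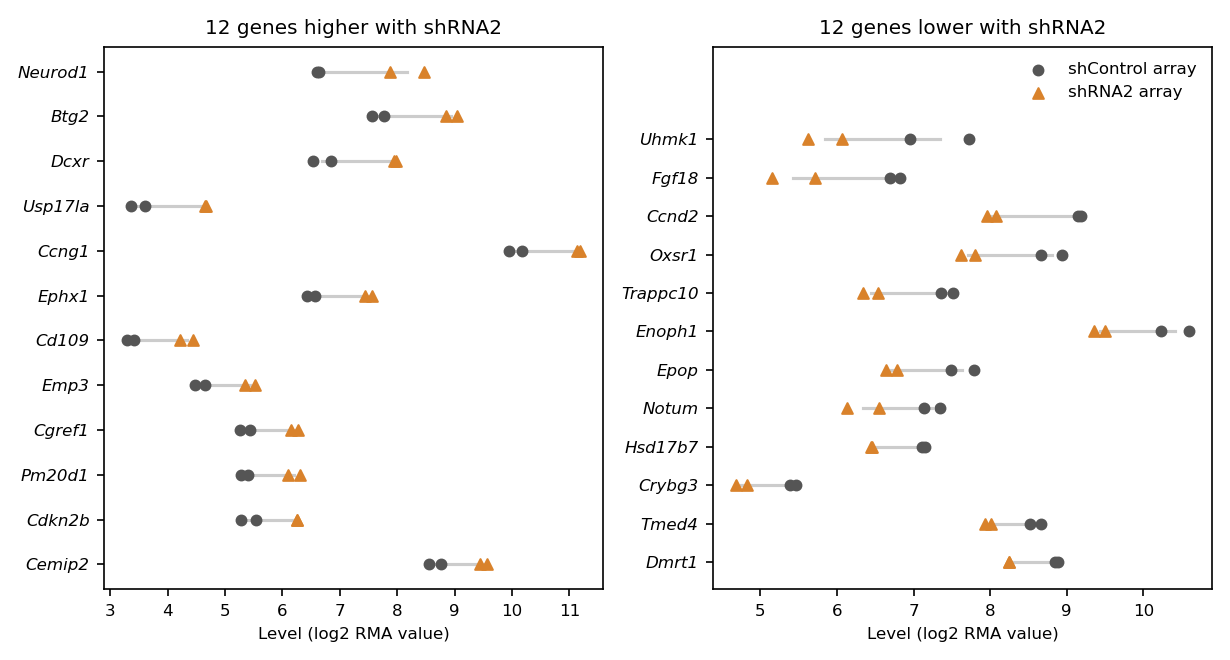
Level (log2 RMA value) on each shControl array (grey circles) and each shRNA2 array (orange triangles) for the 12 genes per direction with the smallest p; grey lines join group means. In all 24 genes both triangles lie on the same side of both circles, as for Btg2 (7.57 and 7.78 against 9.04 and 8.85).

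Because a CXXC domain reads CpG content, the promoters of the genes with the smallest p are shown. They are the 250 bases before the annotated start, from RefSeq on GRCm38.p6, printed 5′ to 3′ along the gene's strand with CpG dinucleotides in capitals. Btg2 lies at chr1:134079156-134079405, Dcxr at chr11:120727285-120727534, Ccng1 at chr11:40755287-40755536 and Oxsr1 at chr9:119322428-119322677, each on the minus strand.
Btg2: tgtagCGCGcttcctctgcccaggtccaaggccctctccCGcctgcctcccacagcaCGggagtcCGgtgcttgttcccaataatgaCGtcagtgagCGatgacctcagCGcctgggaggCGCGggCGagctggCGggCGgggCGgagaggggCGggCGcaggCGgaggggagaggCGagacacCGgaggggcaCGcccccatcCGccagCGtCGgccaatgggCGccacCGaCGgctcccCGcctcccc
Dcxr: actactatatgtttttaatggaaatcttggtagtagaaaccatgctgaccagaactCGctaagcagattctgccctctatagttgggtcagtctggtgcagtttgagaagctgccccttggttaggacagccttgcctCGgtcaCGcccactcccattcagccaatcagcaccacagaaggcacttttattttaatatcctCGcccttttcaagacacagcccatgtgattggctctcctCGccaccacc
Ccng1: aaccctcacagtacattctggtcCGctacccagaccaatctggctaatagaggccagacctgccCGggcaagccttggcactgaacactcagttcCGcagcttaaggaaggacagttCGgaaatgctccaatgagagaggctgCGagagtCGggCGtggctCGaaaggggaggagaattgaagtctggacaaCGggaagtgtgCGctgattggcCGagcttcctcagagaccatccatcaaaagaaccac
Oxsr1: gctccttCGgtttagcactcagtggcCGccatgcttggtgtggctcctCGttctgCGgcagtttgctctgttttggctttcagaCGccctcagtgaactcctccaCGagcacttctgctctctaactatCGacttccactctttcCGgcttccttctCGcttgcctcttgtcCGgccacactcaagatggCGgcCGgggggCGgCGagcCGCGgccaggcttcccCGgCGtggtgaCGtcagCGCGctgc
These windows differed in CpG content: Btg2 held 27, Oxsr1 21, Ccng1 11 and Dcxr 5. Over the 9882 genes with an entry, the median was 14, with quartiles of 6 and 21. So higher genes included a CpG-dense promoter and a CpG-poor one. Of the lower genes, Enoph1 and Trappc10 held 28 each. The genes at an unadjusted p under 0.05 had a median of 12 when higher (271 promoters) and 16 when lower (222 promoters). These counts are descriptions of the sequence, and no methylation or binding was measured on these arrays.

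Both strands of the same windows were searched for the p53 response element, a 20-base palindrome of paired half-sites, allowing 2 mismatches outside its fixed core letters. It was found in 33 of the 9882 promoters (0.334%), in 6 of the 271 of higher genes (2.21%) and in 0 of the 222 of lower genes. Of the p53 targets listed below, 20 had a promoter entry, and 2 of these held a match, Ccng1 and Cdkn1a. Btg2 held none. Ms4a10, Ckap2, Capg and Trp73, which are not on that list, each held a match with 2 mismatches. The matches of Ccng1 and Cdkn1a, each with 1 mismatch, are shown here because both are textbook p53 targets.
Ccng1: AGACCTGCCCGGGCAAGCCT
Cdkn1a: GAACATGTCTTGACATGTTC
The match of Ccng1 spans bases 195 to 176 before the start and that of Cdkn1a bases 51 to 32. Only the first annotated entry of a gene was searched, so the start is that of this entry and may not be the main one. The Ccng1 match lies within the promoter printed above. A match is not a measured site, and many p53 sites lie outside such windows.

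The p53 targets were the list with the largest median difference. Of 29 measured genes, 14 were higher and 1 was lower at an unadjusted p under 0.05, against 2.82% and 2.28% of all genes, and none passed the adjusted threshold. The list's median difference was 0.46 on the log2 scale, beside -0.01 for all genes. Its median deviation from the control mean was -0.02 and 0.02 on the control arrays and 0.50 and 0.33 on the shRNA2 arrays, and without shControl replicate 2 the list's median difference was 0.315. The list was written with earlier results of these data known, so its counts are not independent support. In the fit of the compared arrays alone, 6 members rose: Btg2, Ccng1, Plk2, Perp, Ptp4a3 and Tap1.

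Among the higher members, Cdkn1a, the CDK inhibitor p21, read 8.36 and 8.42 with shControl and 9.03 and 8.97 with shRNA2, a difference of 0.61 ± 0.13. Plk2, a p53-induced polo-like kinase, read 7.73 and 7.41 with shControl and 9.14 and 8.36 with shRNA2, a difference of 1.18 ± 0.27. Perp, a p53-induced desmosome protein, read 7.12 and 7.14 with shControl and 8.26 and 8.05 with shRNA2, a difference of 1.02 ± 0.19. In these genes the lower shRNA2 array was above the higher control array.

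Other higher members have known roles in cell death or feedback. Pmaip1 (NOXA), a BH3-only protein, differed by 0.69 ± 0.20, Bbc3 (PUMA), another, by 0.46 ± 0.15, and Apaf1, the apoptosome scaffold, by 0.58 ± 0.17. Trp53inp1, a stress protein that promotes p53 activity, differed by 0.79 ± 0.17. Mdm2, the ligase that degrades p53, read 8.70 and 8.47 with shControl and 9.33 and 8.88 with shRNA2, a difference of 0.52 ± 0.21. The Mdm2 arrays did not overlap, but the higher control array came close to the lower shRNA2 array.

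Other targets had differences near 0, whose sign changed with the settings. Gadd45a, a growth arrest protein, differed by -0.02 ± 0.24, Sesn1, a stress-induced regulator of mTORC1, by -0.05 ± 0.18, and Rps27l, a ribosomal protein paralog, by 0.03 ± 0.13. Xpc, a sensor of DNA lesions, was the member lower at an unadjusted p under 0.05, with 5.43 and 6.06 on the control arrays and 5.20 and 5.21 on the shRNA2 arrays. Tap1, the peptide transporter of antigen presentation, differed by 0.94 at its brightest probe set and by -0.14 to 0.10 at the 3 others.

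The list of 32 G1 genes had a median of 0.00. At an unadjusted p under 0.05, 5 were higher and 3 lower, against 2.82% and 2.28% of all genes. The 5 higher genes were Cdkn1a, which is also in the p53 list, and 4 other brakes on the entry into S phase. Rb1, the retinoblastoma protein, read 5.83 and 5.77 with shControl and 6.75 and 7.11 with shRNA2 (1.13 ± 0.23; limma adjusted p = 0.294, and 0.00842 in the compared arrays alone). Both shRNA2 arrays exceeded both controls by over 0.9. Cdkn2b, the inhibitor p15 of CDK4 and CDK6, read 5.28 and 5.54 with shControl and 6.25 and 6.26 with shRNA2 (0.84 ± 0.14). Cdkn1b, the CDK inhibitor p27, differed by 0.65 ± 0.26, and Rbl2, the RB relative p130, by 0.68 ± 0.16 from a control level under the lower quartile. Other CDK inhibitors did not rise in this way: Cdkn2c and Cdkn2d differed by 0.05 and 0.03, and Cdkn1c by -0.35 ± 0.16. The 3 lower genes were Ccnd2 and its partner Cdk6 (-0.65 ± 0.22), a D-cyclin kinase, and Myc (-0.47 ± 0.17), a growth-promoting transcription factor. Cdk4, the other D-cyclin kinase, read 10.80 and 10.97 with shControl and 10.82 and 10.68 with shRNA2, overlapping. Of 31 genes of mitosis and DNA replication, 0 passed an unadjusted p under 0.05 (5.10% of all genes), with a median of -0.05.

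**Figure D3:**
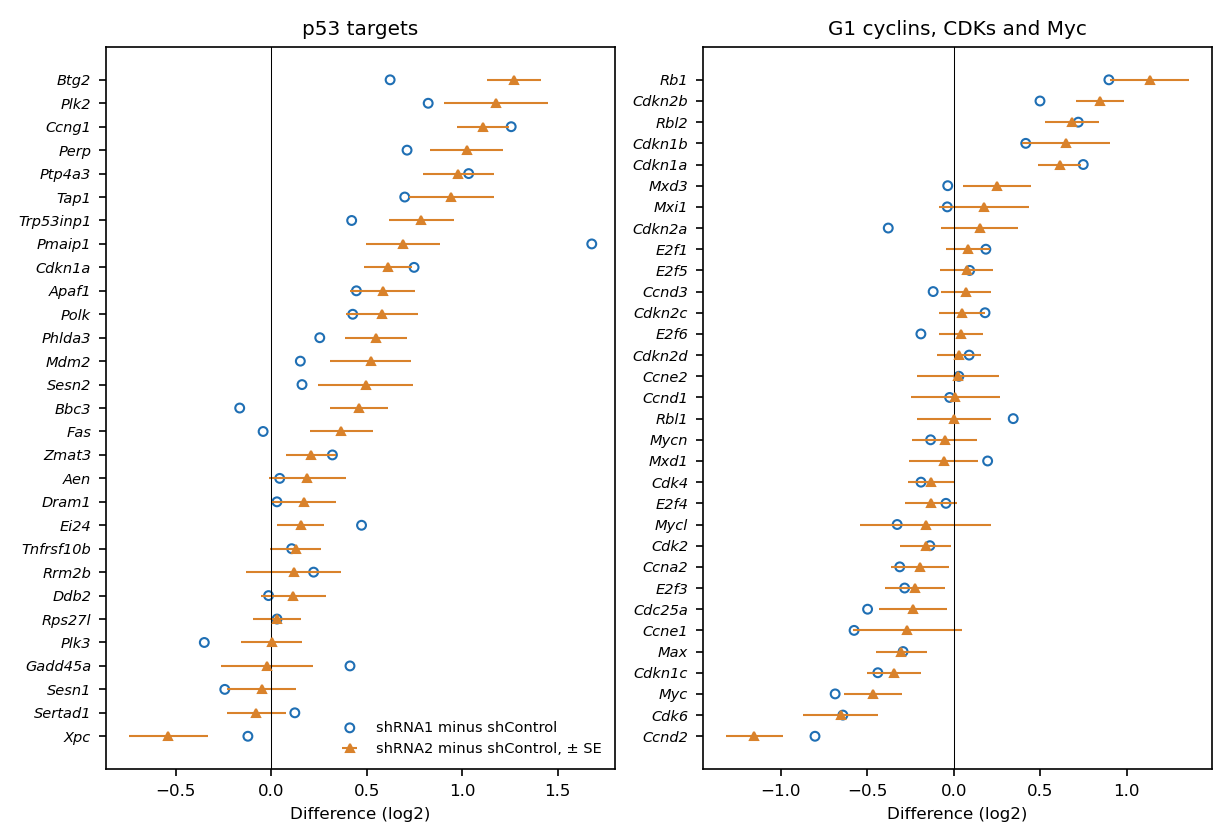
Difference from shControl (log2) for each measured p53 target (left, 29 genes) and G1 gene (right, 32 genes): orange triangles with SE bars for shRNA2, blue open circles for shRNA1, both against the same 2 control arrays. For shRNA2, 25 of the 29 p53 targets lie above 0 (6001 of all 12393 genes), and the G1 genes run from Ccnd2 at -1.15 to Rb1 at 1.13.

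Ddit4 had the largest difference of all genes, and it belongs to a list in which the arrays of a group also lay apart. Ddit4 (REDD1), an inhibitor of mTORC1 induced by hypoxia and other stresses, read 7.82 and 8.78 with shControl and 9.86 and 10.58 with shRNA2. The groups did not overlap, and the difference was 1.92 ± 0.42 (limma adjusted p = 0.338, and 0.00503 in the compared arrays alone). Of the 34 measured genes of glycolysis and hypoxia, 30 lay above 0, against 6001 of all 12393 genes. At an unadjusted p under 0.05, 3 were higher and 0 lower, against 2.82% and 2.28% of all genes. The list's median difference was 0.36, with array medians of -0.20 and 0.20 for shControl and 0.07 and 0.55 for shRNA2. Replicate 2 was the higher array in both groups, and for each replicate number the shRNA2 array lay above the shControl array. The median ranged from 0.07 to 0.57 when single arrays were left out. Bnip3, a mitophagy receptor, had the same order of arrays: it read 7.55 and 9.31 with shControl and 9.16 and 10.74 with shRNA2. Ddit4l, a paralog of Ddit4 outside that list, read 6.15 and 5.93 with shControl and 7.53 and 6.86 with shRNA2, a difference of 1.15 ± 0.27.

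The metallothioneins were higher by about the same amount. Mt2 read 11.04 and 11.16 with shControl and 12.21 and 12.22 with shRNA2, and Mt1 went from 10.47 and 10.78 to 11.64 and 11.66. These proteins bind zinc and copper and buffer metal and oxidant stress. The differences were 1.11 ± 0.47 for Mt2 and 1.03 ± 0.29 for Mt1. These SEs also draw on the day 4 arrays, on which Mt2 read 11.91 and 9.99. With the compared arrays alone the SE of Mt2 was 0.16. Limma's adjusted p for Mt2 was 0.969 with all 4 groups and 0.00612 with the compared arrays alone. The list of NRF2 targets and detoxification enzymes did not move as a group. Of its 34 genes, Dcxr and Ephx1 were higher at an unadjusted p under 0.05 (2.82% of all genes). None was lower (2.28% of all genes), and the median was 0.02.

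Of 31 measured genes of epithelial cells and cell junctions, Perp among them, 26 lay above 0 (6001 of all 12393 genes), with a median of 0.24. At an unadjusted p under 0.05, 5 were higher and 0 lower, against 2.82% and 2.28% of all genes. In 14 of the 31 (against 15.4% of all genes) both shRNA2 arrays exceeded both controls. Sdc4, a heparan sulfate proteoglycan of the cell surface, read 8.73 and 8.70 with shControl and 10.03 and 9.83 with shRNA2. Its difference of 1.22 ± 0.24 passed in both smaller fits. Krt7, a keratin of simple epithelia, read 3.81 and 3.15 with shControl, under the lower quartile, and 4.32 and 5.05 with shRNA2. Dsp, desmoplakin, differed by 0.98 ± 0.29 at its brightest probe set and by 0.56 and 0.02 at the others. Pkp2, plakophilin of desmosomes, read 9.05 and 8.93 with shControl and 9.59 and 9.61 with shRNA2, a difference of 0.61. Among the other genes past 2-fold without overlap, S100a6, a calcium-binding protein, differed by 1.04. Siglecf, a sialic acid receptor, differed by 1.30, from a control level of 3.79 and 4.19. The 8 trophoblast markers had median levels of 5.26 and 5.58 on the shControl arrays and 5.33 and 5.52 on the shRNA2 arrays, with 1 of the 8 (Hand1) higher at an unadjusted p under 0.05. Whether cells of another type had a part in the epithelial genes was not tested.

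**Figure D4:**
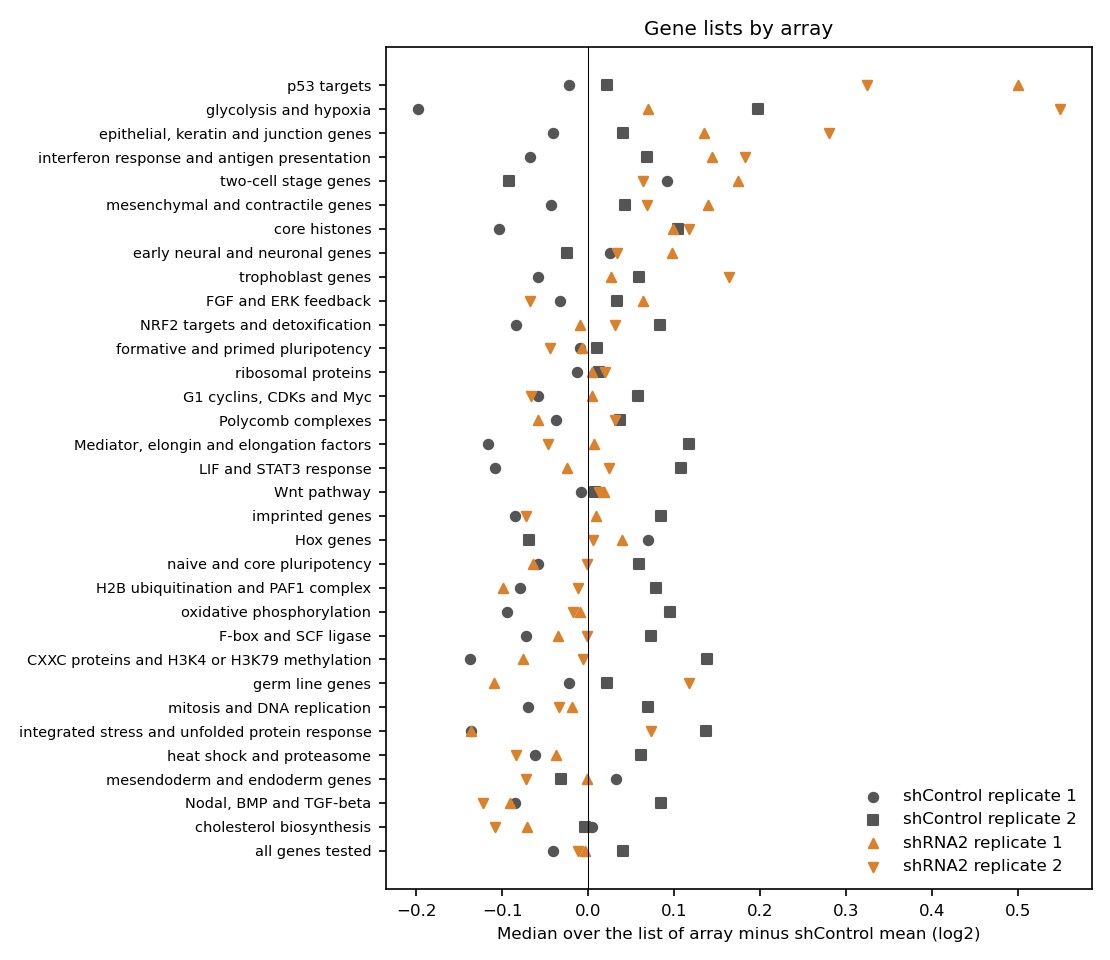
Median over each of the 32 gene lists, and over all genes, of the array's level minus the shControl mean (log2), for the 2 shControl arrays (grey) and the 2 shRNA2 arrays (orange). The p53 targets lie at 0.50 and 0.33 on the shRNA2 arrays against -0.02 and 0.02 on the controls, while for glycolysis and hypoxia the array of replicate 1 of shRNA2 (0.07) lies under replicate 2 of shControl (0.20).

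The pluripotency network showed little difference. Of 30 naive and core pluripotency genes, 0 were higher and 1 lower at an unadjusted p under 0.05 (2.82% and 2.28% of all genes). The list's median was -0.02. The lower gene was Gbx2, a LIF-responsive homeobox factor, with 8.78 and 8.84 on the control arrays and 8.46 and 8.28 on the shRNA2 arrays. Nanog differed by 0.01 ± 0.13 and Pou5f1 by 0.02 ± 0.14. Of 18 genes of formative and primed pluripotency, 1 was higher and 3 were lower. Otx2, which directs the exit from naive pluripotency, was higher by 0.56 ± 0.18. Foxd3 (-0.61 ± 0.17), a forkhead factor of pluripotent cells, the de novo DNA methyltransferase Dnmt3b (-0.57 ± 0.24) and the neural POU factor Pou3f1 (-0.45 ± 0.19) were lower. With shRNA1 the differences from shControl were 1.38 for Otx2, -0.27 for Foxd3, 0.02 for Dnmt3b and 0.38 for Pou3f1. Among 25 genes of FGF signalling and its feedback, 2 were higher and 3 lower, the latter Fgf18, Fgf17 (-0.50 ± 0.19) and Myc.

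The machinery that the title names showed few differences. Of 18 measured genes of H2B ubiquitination and the PAF1 complex, 0 were higher and 1 lower at an unadjusted p under 0.05. Over all genes the shares were 2.82% and 2.28%, and the list's median was -0.02. Rnf20 read 7.37 and 7.83 with shControl and 7.49 and 7.71 with shRNA2, a difference of 0.00 ± 0.21 with the shRNA2 arrays between the controls. The lower gene was Usp7, a deubiquitinase that acts on H2B and also on MDM2 and p53. It read 11.18 and 11.41 with shControl and 10.69 and 10.66 with shRNA2, a difference of -0.62 ± 0.15, and -0.54 at its second probe set. With shRNA1 Usp7 differed from shControl by -0.13. Among 23 CXXC proteins and partners in H3K4 or H3K79 methylation, 0 were higher and 1 lower, Wdr5 (-0.32 ± 0.14), a scaffold of the H3K4 methyltransferases. Kdm2b, the CXXC relative of FBXL19 that recruits Polycomb to CpG islands, differed by -0.07 ± 0.17. Neither Mediator and elongation factors (41 genes) nor F-box and SCF ligase genes (30 genes) had a member at that p, which 5.10% of all genes reached. The medians of these lists were -0.01 and -0.03.

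Of 27 Polycomb genes, 2 were lower and 0 higher at an unadjusted p under 0.05, against 2.28% and 2.82% of all genes. Epop, a subunit that joins PRC2 in ES cells and links it to elongin, read 7.79 and 7.49 with shControl and 6.78 and 6.64 with shRNA2. Its difference was -0.93 ± 0.18 (limma adjusted p = 0.294, and 0.0286 in the compared arrays alone). Suz12, a core subunit of PRC2, read 10.82 and 10.90 with shControl and 10.22 and 10.62 with shRNA2 (-0.44 ± 0.19). All 6 of its probe sets were lower, by 0.05 to 0.48. With shRNA1 the difference from shControl was 0.21 for Suz12 and -1.07 for Epop.

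Lower genes also came from sterol synthesis. Of 19 measured genes of cholesterol biosynthesis, 0 were higher and 3 lower at an unadjusted p under 0.05 (2.82% and 2.28% of all genes). In 9 of the 19 (against 17.8% of all genes) both shRNA2 arrays lay under both controls. Hsd17b7, a reductase of the pathway, read 7.15 and 7.11 with shControl and 6.45 and 6.44 with shRNA2 (-0.68 ± 0.15). Sc5d, a sterol desaturase, differed by -0.51 ± 0.17 and Cyp51, which demethylates lanosterol, by -0.35 ± 0.13. The median of the list was -0.12.

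The remaining developmental lists had members in both directions. Dmrt1, a germ line transcription factor, read 8.89 and 8.85 with shControl and 8.25 and 8.24 with shRNA2, whereas Hormad1, a meiotic chromosome protein, went from 4.73 and 4.42 to 5.38 and 5.29. Among 28 imprinted genes, 1 was higher and 2 lower at an unadjusted p under 0.05, against 2.82% and 2.28% of all genes. The lower were Grb10 (-0.62 ± 0.23), a growth-restraining adaptor, and Plagl1 (-0.94 ± 0.30), a zinc finger regulator. The mean of the 2 Plagl1 probe sets differed by -0.43, the second lying near background. Of 26 interferon and antigen presentation genes, Tap1 among them, 5 were higher and 1 lower, against the same shares of all genes. The list's median was 0.15. The interferon-induced GTPase Gbp2 (0.73 ± 0.19) and the RNA sensor Ifih1 (0.62 ± 0.23) were among the 5, both from control levels at or under the lower quartile. The lower gene, Oas1a (-0.49 ± 0.19), read 9.10 and 9.27 with shControl and 8.65 and 8.74 with shRNA2. Ribosomal proteins (20 genes), oxidative phosphorylation (33 genes), heat shock and proteasome genes (36 genes) and the unfolded protein response (28 genes) had no member at an unadjusted p under 0.05. Since 5.10% of all genes reached that p, lists of this size would hold few at the same share.

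The second hairpin against Fbxl19 shares its control arrays with shRNA1, so their differences from shControl are set side by side and not correlated. For Dcxr the differences were 1.27 with shRNA2 and 1.57 with shRNA1, for Ccng1 1.11 and 1.26, for Ephx1 1.00 and 1.22, for Sdc4 1.22 and 1.44, and for Ddit4 1.92 and 1.61. For Btg2 they were 1.27 and 0.62, for Neurod1 1.55 and 0.77, for Ccnd2 -1.15 and -0.80, and for Rb1 1.13 and 0.90. For Pmaip1 they were 0.69 and 1.68, for Fgf18 -1.33 and -2.25, and for Dmrt1 -0.62 and -1.24. The p53 list had medians of 0.46 with shRNA2 and 0.25 with shRNA1.

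The direct test of shRNA2 against shRNA1, which uses no control array, called 13 genes (0.105%) at a limma adjusted p under 0.05, 4 higher and 9 lower with shRNA2. Of the genes singled out above, these included Cgref1 and Trappc10. Cgref1 was higher with shRNA2 than with shRNA1 by 1.05 ± 0.13 (limma adjusted p = 0.0338) and differed from shControl by -0.18 with shRNA1. Trappc10 was lower with shRNA2 by 1.25 on the log2 scale (SE 0.17; limma adjusted p = 0.0398), with 0.26 against shControl for shRNA1. Oxsr1 (-1.09 with shRNA2 and -0.13 with shRNA1) missed that threshold, with a limma adjusted p of 0.0672 between the hairpins. Enoph1 (-0.98 and -0.05), Uhmk1 (-1.50 and -0.28) and Notum (-0.89 and -0.19) also differed little from shControl with shRNA1, with limma adjusted p of 0.135, 0.239 and 0.388 between the hairpins. Usp17la, a deubiquitinase gene of a multicopy family active at the two-cell stage, was higher than shControl with both hairpins, and more so with shRNA1. It read 3.61 and 3.36 with shControl, 4.67 and 4.66 with shRNA2, and 7.59 and 7.01 with shRNA1. Its copies are nearly identical, so which of them was measured is uncertain. Eloa, the elongin A subunit of an elongation and ubiquitin ligase complex, differed from shControl by 0.00 with shRNA2 and by -1.43 with shRNA1, a difference between hairpins of 1.43 ± 0.16 (limma adjusted p = 0.0225).

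**Figure D5:**
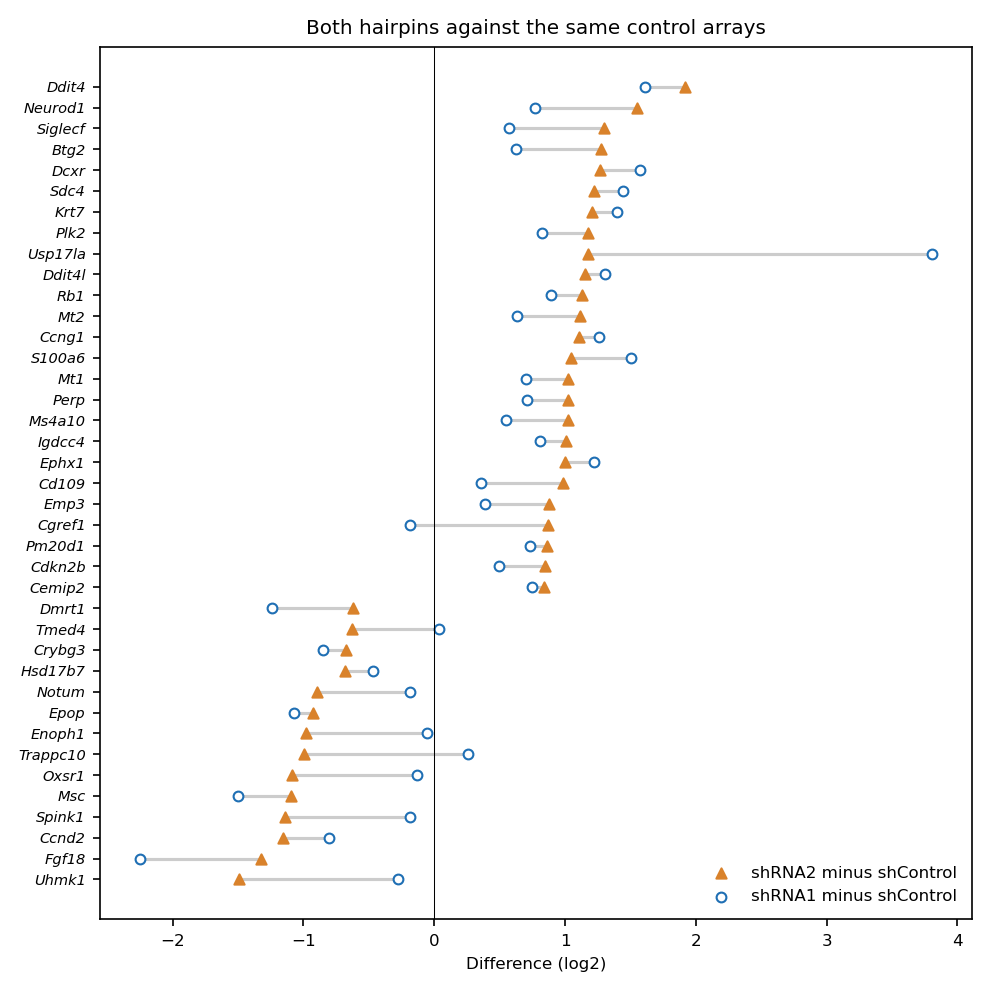
Differences from shControl (log2) with shRNA2 (orange triangles) and shRNA1 (blue circles) for the genes with the smallest p or past 2-fold with shRNA2; grey lines join both values of a gene, and both use the same 2 control arrays. Trappc10 (-0.997 and 0.26), Oxsr1 (-1.09 and -0.13) and Cgref1 (0.87 and -0.18) lie apart between hairpins, and Usp17la (1.17 and 3.81) the farthest.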

How the data were processed

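Gene expression was measured in 8 samples, 1 array each, and groups were taken from the sample titles. The authors deposited log2 values per probe set. The submitters' processing notes name RMA, a method of background correction, quantile normalization and summary, without its version, and whether all arrays were normalized in one run is not given in the sources used. The labels name Cy3 where the design text names Affymetrix arrays. Of 22690 probe sets, 64 were array controls, 20393 had 1 gene symbol in the platform annotation, 691 several and 1606 none. By gene identifier, 20351 matched a RefSeq table (GRCm38.p6), used for names and promoters. Only the first promoter entry of a gene was used. Where a gene had several probe sets, the brightest on average represented it.

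A mean per group was fitted with lmFit and eBayes of limma 3.58.1 (R 4.3.3), with 4 residual degrees of freedom, with Benjamini-Hochberg adjustment over 12393 genes. This 4-group design was kept as the main one whatever number of genes it called, because it had been used before on these data. Errors are its moderated standard errors. Tested on simulated data of shRNA2 against shControl with 200 of the 12393 genes changed, it recovered 65.5% of genes changed 2-fold and 94.7% of those changed 4-fold, with 7.8 unchanged genes called on average. These rates belong to that simulated setting. They are not the sensitivity of the real comparison, in which the number of changed genes is unknown.

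Named are the 12 genes per direction with the smallest p, up to 10 per direction past 2-fold without overlap whose group means both exceeded the lower quartile of every array, up to 4 members of each of 32 gene lists and 6 marker lists with the largest change, and the hairpin values of these. Other list members, the remaining genes past 2-fold, Pqlc3, Mt1, Cdkn2c and Cdkn2d were named after their values were seen. The genes, lists and tests were chosen with earlier results of these data known. Of 2246 probe sets with several genes or that stayed unnamed, 3 were past 2-fold without overlap, all higher. No list was given a test. Alternatives covered the choice or averaging of probe sets, dim genes, the variance prior, the samples in the fit, array weights, normalization, a minimum change, a block for the replicate number, and the omission of single arrays. The precision is limited by the number of arrays.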

Additional observations from a re-analysis of the deposited data

Results flagged for a closer look

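For 4 genes named above, the effect of shRNA2 differed from that of shRNA1 by a direct test of the difference between hairpins (limma, adjusted p under 0.05), out of 13 genes called in that test. The log2 difference of shRNA2 minus shRNA1 was 1.05 for Cgref1, -2.64 for Usp17la, -1.25 for Trappc10 and 1.43 for Eloa. For Eloa the shRNA2 arrays (7.44 and 7.22) lay about the controls (7.32 and 7.34), and the shRNA1 arrays were lower (5.71 and 6.09). For Cgref1 and Trappc10 the shRNA1 arrays lay near the controls. The source of these differences was not tested.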

How the results depend on the processing

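The number of genes called with shRNA2 was 0 with all 4 groups, 40 with the compared arrays alone, 12 with the undifferentiated groups, 2 with the trend and robust variance prior, 2 after repeated quantile normalization, and 0 to 12 when single arrays were left out (12 without either day 4 array). The total degrees of freedom were 8.84 with 4 groups and 15.85 with the compared arrays alone, the median SE was 0.162 and 0.172, and the cause of the difference in calls was not tested. The 632 genes at an unadjusted p under 0.05 became 1123 with every probe set tested (487 higher, 636 lower), 961 with the undifferentiated groups, 32 with a minimum change of 1.5-fold, and 303 (without shRNA2 replicate 2) to 1366 (without shControl replicate 1) with single arrays left out. The 24 genes past 2-fold without overlap became 28 to 56 with 1 array of either group left out. Their number was 46 and 52 without shControl replicates 1 and 2, and 56 and 28 without shRNA2 replicates 1 and 2. With all arrays kept, 28 genes were past 2-fold, and 4 of these overlapped. The cause of the larger counts was not tested. Genes past 2-fold without overlap numbered 21 to 33 under the 5 other settings that change these values, where the 33 are probe sets, with every probe set tested. The 13 genes called between the hairpins became 37 with the undifferentiated groups, 176 with array weights, 2 with a minimum change of 1.5-fold and 2 to 37 with single arrays left out. With the replicate number as a block, 0 genes were called with shRNA2, 763 were at an unadjusted p under 0.05 and 8 were called between the hairpins. The labels tie the numbers to no culture or day. Across genes, the differences of replicate 2 minus replicate 1 correlated with r = 0.226 between shControl and shRNA2, 0.261 between shControl and shRNA1 and 0.504 between shRNA2 and shRNA1, a hint from the data of variation shared by number, and with -0.078 to 0.07 between day 4 and the others. With 2 numbers a group this does not settle a pairing, and the block was kept as an alternative. Some genes described as near 0 changed sign: Eloa to -0.11 and 0.11 without shRNA2 replicates 1 and 2 and -0.19 as a mean of probe sets, Sesn1 to 0.082 as that mean and, without single arrays, -0.102 to 0.001, Gadd45a to 0.008 after quantile normalization and -0.13 to 0.089 without single arrays. Without single arrays, Nanog ran from -0.058 to 0.087, Pou5f1 from -0.11 to 0.15, Rnf20 from -0.23 to 0.23 and Rps27l from -0.038 to 0.10. Levels under the lower quartile of an array have no separate measure of background here.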
